A study of Homo sapiens with 6 samples.

Results

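The interleukin 1 (IL1) family genes described here are 9 listed genes: the cytokines IL1A, IL1B, IL18, IL33 and IL36G, the receptor antagonist IL1RN, and the receptor chains IL1R1, IL1R2 and IL1RAP. They were chosen by symbol and matched to the Entrez gene IDs of the count table, and all 9 were found among its 28395 genes. RNA was sequenced from 3 libraries of MDA-MB-468-PR, a paclitaxel-resistant derivative, and from 3 control libraries of its parent MDA-MB-468, an established line of human triple-negative breast cancer. The resistant line was made in-house by keeping parental cells in 3 to 4.5 nM paclitaxel, which blocks cell division by stabilising microtubules, over 2 months. Every sample of both lines is labelled as untreated at harvest and was grown in high-glucose DMEM with 10% heat-inactivated serum. The series' title names the effect of the resistant cells' secretome on immune cells, but the samples analysed here are tumour cells without immune cells. Since the resistant libraries come from 1 derivative, an effect of paclitaxel and any other change that arose while that derivative was grown cannot be told apart. Resistant replicate 1 and control replicate 1 belong to a 2020 batch and the other 4 libraries to a 2021 batch, per the labels.

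The IL1 family is a group of inflammatory signals that many epithelial cells can make and sense. IL1A and IL1B bind IL1R1, which then recruits IL1RAP as the second chain of the signalling receptor, and the adaptor MYD88 passes the signal on to NF-kappaB and MAP kinases. IL1RN occupies IL1R1 without activating it, and IL1R2 is a decoy that binds IL1 but lacks a signalling domain. IL18 signals through its own receptor and is released in active form after cleavage by caspase-1. IL33 and IL36G are further ligands, and IL1RAP also serves as the shared chain of their receptors. Messenger RNA does not show how much of a cytokine was cleaved or secreted.

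Total counts were 37889818 to 93680129 in the resistant libraries and 41343499 to 66475627 in the control libraries. Levels are given as CPM, that is, counts per 1e6 counts of the library total after TMM scaling. A gene with no count could still be present at up to 3 counts, which was 0.0312 to 0.0808 CPM. This limit holds only where reads can be assigned to the gene. Of 9 epithelial and breast line markers 8 could be tested and had counts in all libraries, PGR had no count, and EGFR was the 1 that rose (log2 difference 0.69; adjusted p = 0.0199 by edgeR, over all tested genes). The EGFR call was lost in 2021 alone (adjusted p = 0.0728) and without the batch term (0.271), and without resistant replicate 1, 2 or 3 or control replicate 1 its adjusted p was 0.0625 to 0.0853. Of 11 leukocyte markers 3 could be tested and 0 passed by edgeR, with 1 at an unadjusted p under 0.05 and 1 called by DESeq2, and their summed level was 12.0 to 20.03 CPM in resistant and 12.0 to 21.6 CPM in control libraries. MS4A1 and TYROBP had no count, and CD14 made up most of that sum at mean levels of 12.4 CPM in resistant and 11.3 CPM in control cells. Of the 3 tested, 2 lay higher in resistant cells without passing by edgeR: CD14 by 0.19 (adjusted p = 0.801) and ITGAM by 0.49 (adjusted p = 0.577) on the log2 scale. CSF1R, a macrophage growth factor receptor gene, went the other way, with 1.67, 2.12 and 1.23 CPM in resistant libraries, against 4.20, 7.78 and 2.38 CPM in control libraries. These did not overlap, a pattern seen in 20.9% of all tested genes. The log2 difference of CSF1R was -1.52 (adjusted p = 0.0758 by edgeR). Its adjusted p was 0.0139 with the replicate block, 0.00364 by DESeq2 and 0.000388 without control replicate 3. CSF1R did not pass in the other 14 of 17 alternatives. Among them were edgeR on 2021 alone (adjusted p = 0.227), edgeR without the batch term (0.128) and limma voom (0.105). Over the 17 its log2 difference ranged from -1.89 to -0.72. Its part in the results below was not tested. Of 9 fibroblast and endothelial markers 5 could be tested and 0 passed by edgeR or DESeq2, with 1 at an unadjusted p under 0.05 in edgeR. Their sums were 27.5 to 30.8 CPM in resistant and 26.9 to 34.1 CPM in control libraries. COL1A1 made up most of these sums, at mean levels of 24.6 CPM in resistant and 26.4 CPM in control cells. COL1A2, DCN, LUM and PDGFRB were too low to test. Over all tested genes 11.7% passed by edgeR. Resistant replicate 3 and control replicate 2 stood apart in FOS, an immediate-early transcription factor gene, at 3.31 and 2.93 CPM, whereas the other 4 libraries held 169 to 324 CPM. In bulk RNA, fewer cells with a transcript and less of it per cell cannot be told apart.

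The 9 genes fell into 3 levels in both lines. IL18, IL1R1 and IL1RAP held 506 to 2488 counts in a library, IL1RN and IL1R2 held 19 to 148, and IL1A, IL1B, IL33 and IL36G held 0 to 6. The start regions of 2 receptor genes and of the 2 classical agonists are shown because the levels divide the genes in this way. They are 300-base windows, from 250 bases before to 50 bases after a listed transcription start, taken from RefSeq on GRCh38.p14 and written 5' to 3' on the gene's strand, with CpG dinucleotides in capitals. Those of IL1R1 (chr2:102142496-102142795, plus strand), IL1RAP (chr3:190513835-190514134, plus strand), IL1A (chr2:112784444-112784743, minus strand) and IL1B (chr2:112836730-112837029, minus strand) read as follows.
IL1R1: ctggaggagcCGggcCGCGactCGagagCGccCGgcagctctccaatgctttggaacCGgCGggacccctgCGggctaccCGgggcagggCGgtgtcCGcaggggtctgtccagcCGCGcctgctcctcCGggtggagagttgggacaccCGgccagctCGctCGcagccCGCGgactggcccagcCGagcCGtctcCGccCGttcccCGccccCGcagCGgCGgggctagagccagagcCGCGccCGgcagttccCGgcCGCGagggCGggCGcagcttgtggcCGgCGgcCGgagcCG
IL1RAP: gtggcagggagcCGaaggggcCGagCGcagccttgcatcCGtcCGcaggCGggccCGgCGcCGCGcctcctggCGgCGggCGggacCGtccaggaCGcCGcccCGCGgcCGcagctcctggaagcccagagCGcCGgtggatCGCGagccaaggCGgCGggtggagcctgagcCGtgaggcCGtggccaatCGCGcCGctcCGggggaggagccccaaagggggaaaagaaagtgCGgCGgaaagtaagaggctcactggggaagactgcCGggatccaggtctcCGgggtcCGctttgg
IL1A: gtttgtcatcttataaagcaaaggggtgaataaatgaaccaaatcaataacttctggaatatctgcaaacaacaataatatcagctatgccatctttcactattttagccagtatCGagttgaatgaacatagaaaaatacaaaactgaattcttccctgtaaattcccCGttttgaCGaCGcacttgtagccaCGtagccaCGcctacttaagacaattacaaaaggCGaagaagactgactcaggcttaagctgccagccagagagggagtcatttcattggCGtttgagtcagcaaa
IL1B: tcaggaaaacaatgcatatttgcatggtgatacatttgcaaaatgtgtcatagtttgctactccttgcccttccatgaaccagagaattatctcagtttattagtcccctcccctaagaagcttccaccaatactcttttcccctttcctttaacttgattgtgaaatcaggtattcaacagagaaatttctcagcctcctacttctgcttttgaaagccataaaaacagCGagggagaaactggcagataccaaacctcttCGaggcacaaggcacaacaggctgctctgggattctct
The IL1R1 window holds 40 CpG and the IL1RAP window 36, against a median of 14 over 35114 such windows (quartiles 4 and 28). IL1A holds 8 CpG and IL1B 2. IL1R1 has 4 listed starts, of which the one shown is the richest in CpG and the others hold 4 to 8. Gene counts do not tell which start was used. Among the 8 members with a window, no gene other than IL1R1 and IL1RAP exceeded 9 CpG in any of its windows. IL18, the other gene of the highest level, had no window. IL1RN held 2 to 7 CpG and IL1R2 1 to 9, close to IL1A and IL1B despite their higher counts. Over all genes in the table, 80.5% of the 10487 with at least 20 CpG in a window passed the filter on low counts, against 16.9% of the 3766 with at most 5. Whether CpG content bears on the levels of the members was not tested. Searched on both strands, the TATA-like word TATAAA occurs once in the IL1A window shown, and the AP-1 word TGANTCA occurs 2 times in it. IL1A has 2 listed starts, and the window of the other one holds 0 TATAAA and 2 TGANTCA. The other 3 windows shown held neither word nor the NF-kappaB consensus. Over all windows these motifs occur in 11.5% (TATAAA), 7.71% (TGANTCA) and 11.3% (NF-kappaB consensus), and a match is a description of the letters only.

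Resistant cells held less IL1R1 and more IL18 than control cells, and 5 of the 9 genes had enough counts to be tested. Of these 5, 1 rose (IL18) and 1 fell (IL1R1) at an adjusted p under 0.05 in edgeR's quasi-likelihood fit, which also holds the batch. In that fit, 11.7% of the 13950 tested genes passed, with 6.23% higher and 5.48% lower. IL18 and IL1R1 were also the 2 members whose libraries did not overlap between the lines, a pattern seen in 20.9% of tested genes (10.7% with the resistant libraries above and 10.2% with them below). The median log2 difference of the 5 members was 0.15, and that of all tested genes was -0.0039.

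**Figure D1:**
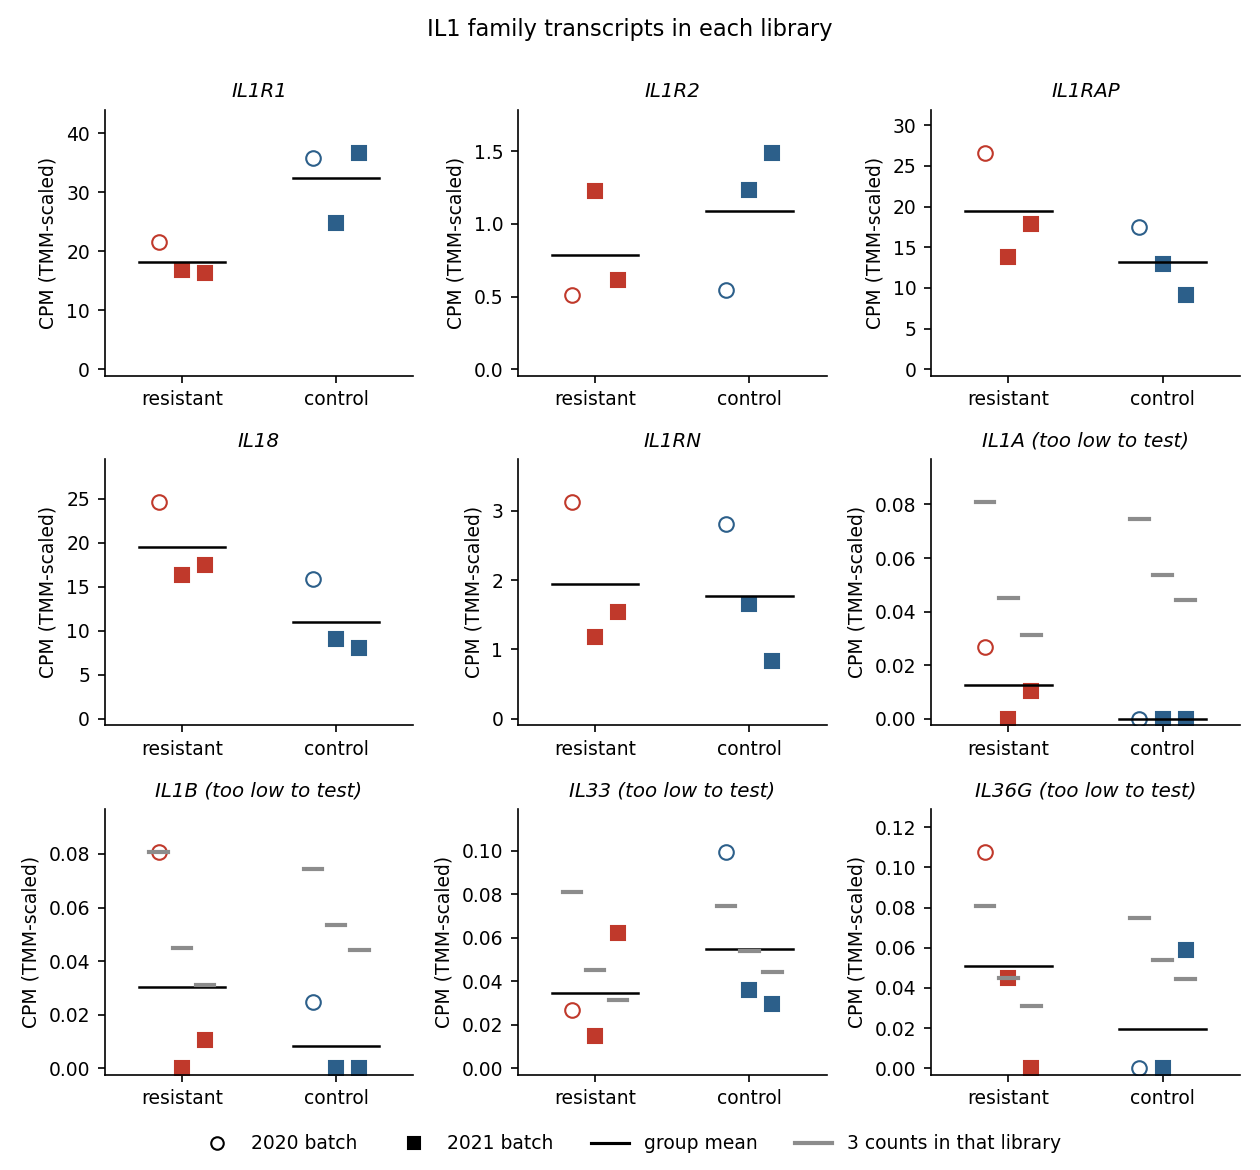
Level of each of the 9 IL1 family genes in each library, in CPM on a linear axis of its own per gene, with resistant libraries left of control libraries, circles for 2020, squares for 2021, black bars for group means and grey bars for 3 counts in that library. IL1R1 lies lower and IL18 higher in all 3 resistant libraries, while IL1A, IL1B, IL33 and IL36G lie near or under the grey bars.

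The agonist ligands of the IL1 receptor were almost absent from both lines. IL1A (Entrez 3552; GRCh38 chr2:112773925-112784493), an alarmin that cells release on damage, had 1, 0 and 1 counts in resistant replicates 1 to 3, against 0 in each of the 3 control replicates. IL1B (Entrez 3553; chr2:112829751-112836779), the secreted agonist of inflammation, had 3, 0 and 1 counts in resistant libraries, against 1, 0 and 0 in control libraries. Both genes were at or under the 3-count limit in every library, so no fold is given. IL33 (Entrez 90865; chr9:6215149-6257983), a nuclear alarmin, had 1, 1 and 6 counts in resistant libraries, against 4, 2 and 2 in control libraries. The ratio of its summed counts, resistant over control and scaled to library size, was 0.820, with a 95% exact interval of 0.268 to 2.50 that covers counting error only. IL36G (Entrez 56300; chr2:112978006-112985658), an epithelial cytokine, had 4, 3 and 0 counts in resistant libraries, against 0, 0 and 4 in control libraries. Its ratio was 1.43, with an interval of 0.365 to 6.68, and the libraries of the 2 lines overlapped for both genes. A change in any of these 4 ligands was not detectable at this depth.

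IL18 was the one ligand of the set with a clear level. IL18 (Entrez 3606; chr11:112143260-112164094) had 24.6, 16.4 and 17.5 CPM in resistant replicates 1 to 3, against 15.9, 9.05 and 8.01 CPM in control replicates 1 to 3. Every resistant library lay above every control library, although resistant replicate 2 exceeded control replicate 1 only slightly. The means were 19.5 ± 4.45 CPM in resistant and 11.0 ± 4.29 CPM in control cells (SD, n = 3 each). IL18 rose 1.83-fold, a log2 difference of 0.87 ± 0.13 (SE; 95% interval 0.59 to 1.16), with an adjusted p of 0.00395 by edgeR. Within batches the log2 difference was 0.63 between the 2 libraries of 2020 and 0.99 among the 4 of 2021. Without the batch term the adjusted p was 0.206, and in the 2021 libraries IL18 was 0.72 lower on the log2 scale than in those of 2020 (adjusted p = 0.00881 by edgeR).

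IL1RN, the antagonist, made up nearly all transcripts that encode a ligand of IL1R1. IL1RN (Entrez 3557; chr2:113099360-113134014) had 116, 79 and 148 counts in resistant libraries, against 113, 93 and 56 in control libraries. Its share of the summed IL1RN, IL1A and IL1B counts was 96.7%, 100% and 98.7% in resistant replicates 1 to 3, against 99.1%, 100% and 100% in control replicates 1 to 3. The lowest of the exact 95% binomial bounds was 91.7% in resistant libraries and 93.6% in control libraries. The interval of resistant replicate 1, 91.7% to 99.1%, did not reach the 100% of control replicates 2 and 3, nor that of resistant replicate 2. It did overlap the intervals of control replicate 2 (96.1% to 100%) and control replicate 3 (93.6% to 100%). The lower share of resistant replicate 1 rests on 4 IL1A and IL1B counts in that library. No test of the difference between the lines was made. In CPM, IL1RN had 3.12, 1.19 and 1.54 in resistant libraries, against 2.81, 1.66 and 0.826 in control libraries. The lines overlapped, with the highest value of each in 2020. The log2 difference was 0.15 ± 0.29 (SE; 95% interval -0.51 to 0.81; adjusted p = 0.789 by edgeR).

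IL1R1, the signalling receptor of IL1A and IL1B, fell in the resistant line. IL1R1 (Entrez 3554; chr2:102070390-102179874) had 21.6, 16.8 and 16.3 CPM in resistant libraries, against 35.8, 24.8 and 36.7 CPM in control libraries. All 3 resistant libraries lay below the lowest control library, control replicate 2. The means were 18.2 ± 2.93 CPM in resistant and 32.4 ± 6.64 CPM in control cells (SD, n = 3 each). The log2 difference was -0.84 ± 0.15 (SE; 95% interval -1.18 to -0.50), a 1.79-fold lower level, with an adjusted p of 0.00904 by edgeR. It was -0.73 in 2020 and -0.87 in 2021. The call was lost without resistant replicate 3 (adjusted p = 0.0696) and without the batch term (adjusted p = 0.0735), with log2 differences of -0.82 and -0.83.

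IL1RAP, the shared second chain, had higher values in each batch of resistant cells but did not pass the test. IL1RAP (Entrez 3556; chr3:190514085-190659750) had 26.6, 13.8 and 17.9 CPM in resistant libraries, against 17.5, 12.96 and 9.07 CPM in control libraries. The lines overlapped because control replicate 1 of 2020 exceeded resistant replicate 2 of 2021, while within 2020 and within 2021 the resistant libraries were the higher ones. The log2 difference was 0.55 ± 0.16 (SE; 95% interval 0.19 to 0.92; adjusted p = 0.0607 by edgeR), with 0.60 in 2020 and 0.53 in 2021. The adjusted p was 0.0268 without control replicate 2, 0.00569 without both libraries of low FOS and 0.00949 with a block that pairs the 2021 libraries with crossed numbers. In edgeR it was 0.194 in 2021 alone, 0.463 without the batch term and 0.0929 with the replicate block, and it was 0.0620 by limma voom. IL1RAP did not pass in 11 of the 17 alternatives. IL1R2, the decoy receptor (Entrez 7850; chr2:101991960-102028544), had 0.512, 1.23 and 0.613 CPM in resistant libraries, against 0.547, 1.23 and 1.49 CPM in control libraries. The ranges overlapped, and the log2 difference was -0.46 ± 0.33 (SE; 95% interval -1.21 to 0.30; adjusted p = 0.425 by edgeR).

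**Figure D2:**
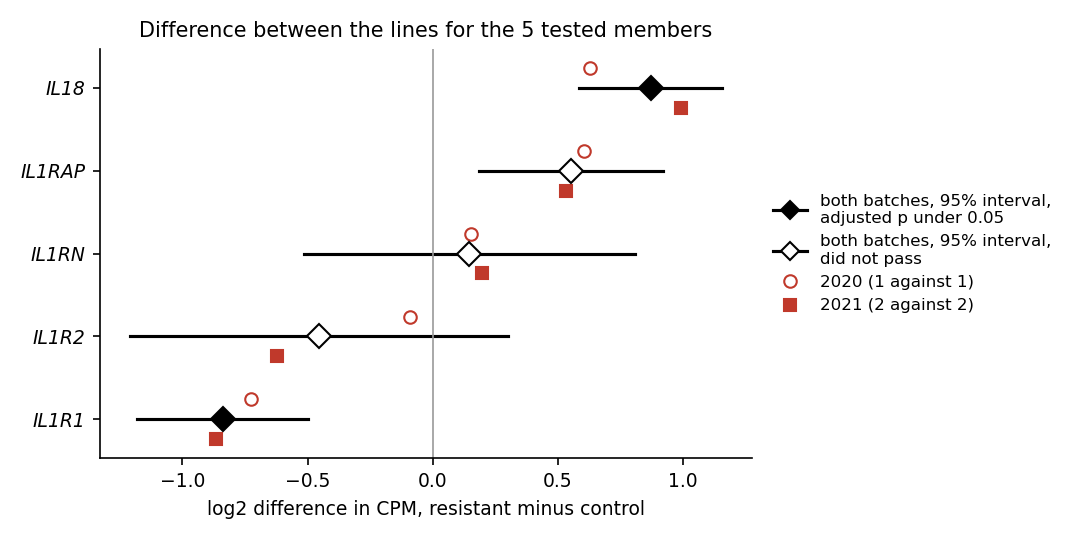
Log2 difference between resistant and control cells for the 5 tested IL1 family genes, with the 95% interval of the edgeR fit and the separate values of the 2020 and 2021 batches. IL18 lies above 0 and IL1R1 below 0 in both batches, and the intervals of IL1RN and IL1R2 span 0.

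The relation between the receptor chains within a library does not depend on scaling, and it was looked at after the values above were seen, so it is a description without a test. There were 1.23, 0.819 and 1.10 IL1RAP counts for each IL1R1 count in resistant replicates 1 to 3, against 0.489, 0.523 and 0.247 in control replicates 1 to 3. For IL18 the ratio to IL1R1 counts was 1.14, 0.972 and 1.08 in resistant libraries, against 0.444, 0.365 and 0.218 in control libraries. Neither ratio overlapped between the lines. For IL18 over IL1R1 this follows from the values above, since IL18 lay higher and IL1R1 lower in every resistant library. The IL1RAP ratio also holds the fall of IL1R1, and the share of other gene pairs without overlap was not computed. The ratio of decoy IL1R2 to IL1R1 counts did overlap, at 0.0237 to 0.0731 in resistant and 0.0153 to 0.0498 in control libraries. So did IL1RN to IL1R1, at 0.0704 to 0.145 in resistant and 0.0225 to 0.0785 in control libraries. The ratio of IL18 to IL18BP, the gene of a secreted IL18 binder, overlapped at 4.45 to 12.9 in resistant and 2.24 to 5.25 in control libraries.

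Divided by the summed exon length of each gene, the order of levels differed at the top. In resistant cells IL18 came first at 7.42 ± 1.69 CPM per kb of exon, followed by IL1R1 at 2.57 ± 0.414 and IL1RAP at 1.68 ± 0.566 (SD, n = 3). In control cells IL1R1 at 4.58 ± 0.937 and IL18 at 4.18 ± 1.63 CPM per kb led, with overlapping libraries, followed by IL1RAP at 1.14 ± 0.365. IL18 stood clear of IL1R1 in resistant libraries, but the ranges of IL1R1 and IL1RAP overlapped there. IL1RN had 0.598 ± 0.317 CPM per kb in resistant and 0.542 ± 0.306 in control cells, and IL1R2 followed at 0.255 ± 0.127 in resistant and 0.355 ± 0.159 in control cells. Per kb of coding sequence, which the exome probes of these libraries mainly target, IL18 had 33.7 ± 7.69 CPM per kb in resistant and 19.0 ± 7.41 in control cells. IL1R1 had 10.3 ± 1.65 CPM per coding kb in resistant and 18.2 ± 3.73 in control cells, and on this scale its control libraries again overlapped those of IL18.

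The levels of several members also differed between batches. In a test of 2021 against 2020 libraries, 3 of the 5 tested members were lower in 2021, against 11.4% of tested genes lower and 22.9% changed in either direction. Besides IL18, these were IL1RN, with a log2 difference of -1.19 (adjusted p = 0.0253), and IL1RAP, with -0.71 (adjusted p = 0.0208), both by edgeR. IL1R1 differed by -0.30 (adjusted p = 0.184) and IL1R2 by 1.08 (adjusted p = 0.0727). Whether the difference between the lines itself differed between batches was tested with an interaction term, and it passed for none of the 5 members, whose unadjusted p-values by edgeR were 0.226 to 0.986. Over all 13950 genes 0 passed this test and 187 had an unadjusted p under 0.05, which is 1.34%.

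The rest of the IL1 family gave no call. Of 13 further ligands, receptors and soluble inhibitors 5 could be tested and 0 passed by edgeR, DESeq2 or limma voom. In edgeR 1 had an unadjusted p under 0.05, and the median log2 difference was 0.03. Over all tested genes 11.7% passed by edgeR, so 0 of 5 does not set these genes apart. IL36A, IL36B and IL1RAPL1 had no count in any library. SIGIRR, an inhibitory receptor of the family, was the most abundant of these at 24.6 ± 2.72 CPM in resistant and 24.1 ± 3.39 CPM in control cells (SD, n = 3 each), with a log2 difference of 0.03 (adjusted p = 0.884 by edgeR). IL18R1, the ligand-binding chain of the IL18 receptor, had 0.862, 1.38 and 0.696 CPM in resistant libraries, against 0.696, 0.554 and 0.384 CPM in control libraries. The groups met at 0.696 CPM, and the log2 difference of 0.88 ± 0.37 (SE) did not pass (adjusted p = 0.173 by edgeR). IL18RAP, the second chain that IL18 needs for signalling, had 0, 3 and 1 counts in resistant libraries and 0 in each control library. IL18BP, the secreted binder that neutralises IL18, averaged 2.98 ± 0.939 CPM in resistant and 2.88 ± 0.777 CPM in control cells. IL1RAPL2, a member known mainly from neurons, averaged 3.28 CPM in resistant and 2.75 CPM in control cells, and IL1RL2, the IL36 receptor, averaged 0.295 CPM in resistant and 0.370 CPM in control cells. IL1RL1, the IL33 receptor, had 14, 5 and 5 counts in resistant libraries, against 6, 4 and 1 in control libraries. IL37, an anti-inflammatory ligand, had 0, 5 and 12 counts in resistant libraries, against 3, 6 and 4 in control libraries.

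Downstream of the receptor, calls among the signalling genes were about as frequent as among all genes. Of 19 signal transducers, all tested, 1 rose and 1 fell, against 11.7% of all tested genes called, with a median log2 difference of -0.13. PELI2, a ubiquitin ligase that acts on IRAK kinases, had 53.8, 52.2 and 48.8 CPM in resistant libraries, against 36.9, 24.8 and 31.5 CPM in control libraries. It did not overlap and rose by 0.74 ± 0.12 (log2, SE; adjusted p = 0.00671 by edgeR). TAB3, an adaptor of the kinase MAP3K7, had 67.4, 51.5 and 60.6 CPM in resistant libraries, against 91.6, 73.0 and 73.2 CPM in control libraries. The libraries did not overlap, and it fell by 0.40 on the log2 scale (adjusted p = 0.0304 by edgeR). The TAB3 call was lost in 2021 alone (adjusted p = 0.143), without resistant replicate 1, 2 or 3 and without control replicate 1, with adjusted p-values of 0.0541 to 0.152 when a library was left out. Of 17 NF-kappaB, MAP kinase and AP-1 factors, all tested, none rose and 1 fell, against 6.23% and 5.48% of all tested genes, with a median of -0.08. That was MAPK14, the p38 alpha kinase, with 29.6, 47.4 and 42.3 CPM in resistant libraries, against 53.4, 72.3 and 74.4 CPM in control libraries (log2 difference -0.76 ± 0.09, SE; adjusted p = 0.00252 by edgeR). Its libraries did not overlap.

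Among 27 genes of the inflammasome and of IL1 processing or release, 18 could be tested, 3 rose and none fell, against 6.23% and 5.48% of all tested genes, with a median log2 difference of 0.01. NAIP, AIM2 and GSDMD had no count in any library. Since the treatment of multi-mapping reads is not given, absence of these transcripts cannot be read from that. CASP1, which encodes the caspase that cleaves IL1B and IL18, had 84.3, 46.5 and 49.4 CPM in resistant libraries, against 51.99, 13.1 and 15.3 CPM in control libraries. Within each batch the resistant libraries were the higher ones, but control replicate 1 of 2020 exceeded resistant replicates 2 and 3 of 2021. CASP1 rose by 1.40 ± 0.21 (log2, SE; adjusted p = 0.00708 by edgeR), with 0.70 in 2020 and 1.76 in 2021, and the log2 difference was 1.14 without the libraries of low FOS. The difference between batches had an unadjusted p of 0.00199 in edgeR's interaction test and did not pass after adjustment over all genes, and the call was lost without control replicate 3 (adjusted p = 0.0820). CARD16, which encodes a CARD-only protein that binds caspase-1, lies beside CASP1 and resembles it in sequence, so reads may be shared between them. It had 14.4, 6.66 and 7.32 CPM in resistant libraries, against 9.17, 2.29 and 2.45 CPM in control libraries, and it rose by 1.24 ± 0.20 (log2, SE; adjusted p = 0.00638 by edgeR). CTSS, a lysosomal protease, had 24.4, 10.3 and 10.5 CPM in resistant libraries, against 14.1, 5.33 and 7.66 CPM in control libraries. Only within batches were the resistant libraries all higher, and CTSS rose by 0.72 ± 0.15 (log2, SE; adjusted p = 0.0178 by edgeR). Its call was lost in 2021 alone (adjusted p = 0.0961), without resistant replicate 1, 2 or 3 and without control replicate 1, with adjusted p-values of 0.0542 to 0.0920 when a library was left out.

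Genes that NF-kappaB is known to induce after IL1 were higher more often than lower. Of 29 listed, 21 could be tested, 7 rose and none fell. Their median log2 difference was 0.54 and 18 of the 21 lay above 0, against a median of -0.0039 and 49.4% above 0 over all tested genes, of which 6.23% rose. The list was chosen with earlier results of these data known, many of its genes also answer to other stimuli, and CSF3 and PTGS2 had no count. IL6, a cytokine, had 15.5, 0.990 and 0.519 CPM in resistant libraries, against 3.65, 0.125 and 0.221 CPM in control libraries. The 2020 libraries were far above those of 2021 in both lines, and within each batch the resistant libraries were higher. IL6 rose by 2.07 ± 0.31 (log2, SE; adjusted p = 0.00443 by edgeR), with 2.07 in 2020 and 1.91 in 2021. ICAM1, an adhesion molecule for leukocytes, had 69.8, 107 and 77.8 CPM in resistant libraries, against 37.7, 46.4 and 34.7 CPM in control libraries. The lines did not overlap, and ICAM1 rose by 1.09 ± 0.16 (log2, SE; adjusted p = 0.00447 by edgeR). LCN2, an iron-sequestering secreted protein, averaged 112 ± 18.9 CPM in resistant and 69.7 ± 2.48 CPM in control cells (SD, n = 3 each) without overlap, and it rose by 0.68 ± 0.11 (log2, SE; adjusted p = 0.00692 by edgeR).

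TNFAIP3, a feedback inhibitor of NF-kappaB, had 106, 14.9 and 10.8 CPM in resistant libraries, against 64.7, 7.69 and 5.58 CPM in control libraries. As for IL6, the batches were further apart than the lines, and the rise within batches was 0.71 in 2020 and 0.95 in 2021 on the log2 scale (adjusted p = 0.0117 by edgeR for both together). The other 3 that rose were named after their values were seen. They were TNFAIP2 with a log2 difference of 1.26 (adjusted p = 0.0149), the chemokine gene CXCL1 with 2.41 (adjusted p = 0.0294) and BIRC3, an inhibitor of apoptosis, with 1.06 (adjusted p = 0.0260), all by edgeR. CXCL1 and BIRC3 lost their calls under more alternatives than the other 5. Without control replicate 3 the adjusted p was 0.149 for CXCL1 and 0.101 for BIRC3, without control replicate 2 it was 0.123 and 0.118 in that order, and without resistant replicate 3 it was 0.0719 and 0.101. BIRC3 was also lost without resistant replicate 2 (adjusted p = 0.0700). With a term for each replicate number in place of the batch, CXCL1 had an adjusted p of 0.0517 and BIRC3 of 0.0628, and with no filter on low counts TNFAIP2 had 0.0785 and CXCL1 0.0640. Within the 2021 libraries the difference in log2 CPM was 3.10 for CXCL1 and 1.47 for BIRC3, against 0.83 and 0.26 in 2020. The difference between batches had an unadjusted p of 0.00509 for CXCL1 and 0.00207 for BIRC3 in edgeR's interaction test. Neither passed that test after adjustment over all genes. Without the batch term the calls of ICAM1 and TNFAIP2 were the only ones kept among the pathway genes named as having changed.

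**Figure D3:**
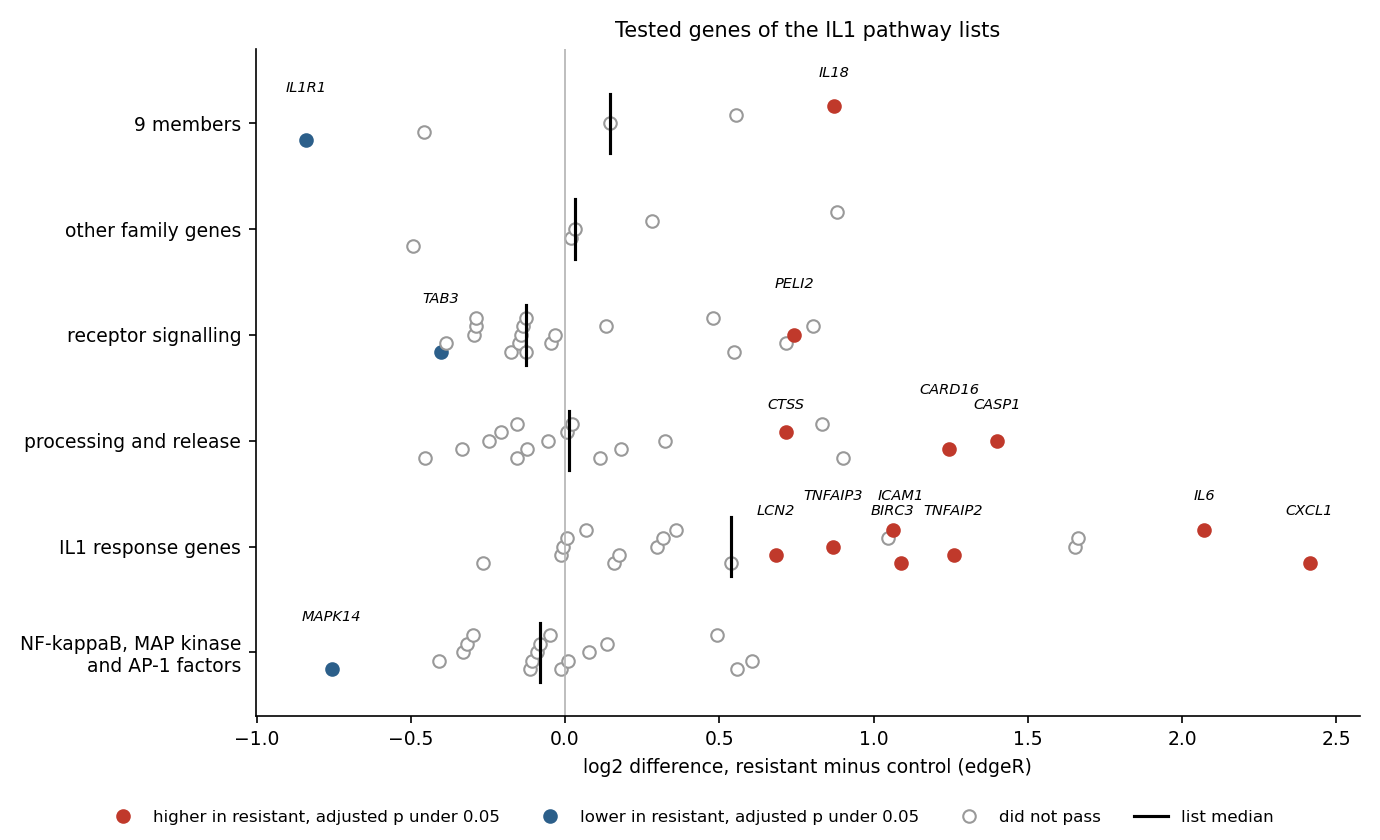
Log2 difference between resistant and control cells of each tested gene in the lists of the IL1 pathway, one row per list, with genes that passed at an adjusted p under 0.05 filled and the list's median as a bar. The response genes lie mostly to the right of 0, with 7 filled, while the signal transducers and the NF-kappaB and MAP kinase factors lie around 0.

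Of the 9 genes 6 lie in 2 clusters on chromosome 2. From 1 Mb before IL1A to 1 Mb after IL1RN (GRCh38 chr2:111773925-114134014), 20 tested genes outside the 9 had a median log2 difference of 0.01. Of these 1 rose and none fell, against 6.23% and 5.48% of all tested genes. The gene that rose was FBLN7, a cell adhesion protein gene, at a low level of 0.421 CPM in resistant and 0.0756 CPM in control cells (log2 difference 2.49; adjusted p = 0.00737 by edgeR). From 1 Mb before IL1R2 to 1 Mb after IL1R1 (chr2:100991960-103179874), 11 tested genes outside the 9 had a median of 0.12. Of these 0 passed by edgeR, DESeq2 or limma voom, against 11.7% of all tested genes in edgeR, and 2 had an unadjusted p under 0.05 in edgeR.

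**Figure D4:**
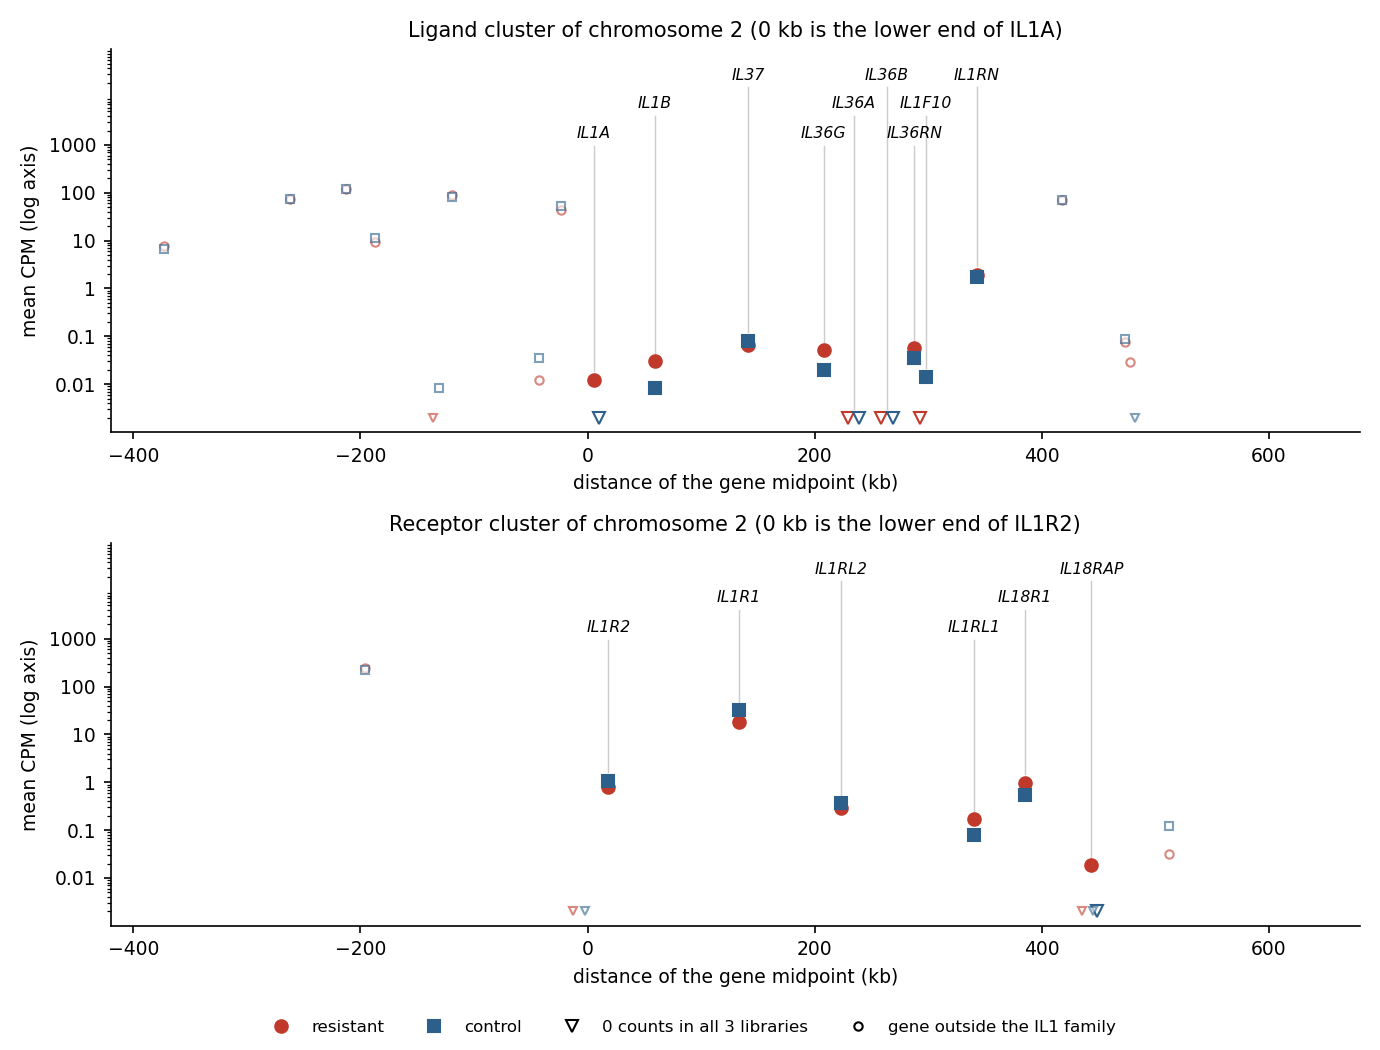
Mean level in CPM (log axis) of genes along the ligand and receptor clusters of chromosome 2, by distance in kb, with resistant and control cells as circles and squares. IL1 family genes are named, and filled where the line had counts. An open triangle marks a gene without a count in all 3 libraries of that line, also where the other line had counts. Among the ligand genes drawn IL1RN alone lies above 0.1 CPM, and IL1R1 is the most abundant family gene of the receptor cluster.

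Over the 6 libraries, the profile of IL1R1 was most like those of PHEX (Pearson r = 0.990), SNRNP48 (r = 0.990) and RCSD1 (r = 0.988), out of 10514 genes whose mean reached 5 CPM. All 3 fell in the resistant line, by 1.18, 0.62 and 1.06 on the log2 scale in that order. The call of SNRNP48 was lost in 2021 alone (adjusted p = 0.0514), without the batch term (0.1003) and without any 1 resistant library (0.0525 to 0.0627). IL1RAP was most like FRMD6 (r = 0.995), ST6GAL1 (r = 0.994) and ETS2 (r = 0.992). Of these, ST6GAL1 and ETS2 rose by 0.53 and 0.40 (adjusted p = 0.0308 and 0.0414 by edgeR), and FRMD6 differed by 0.27 without passing (adjusted p = 0.142 by edgeR). Neither call held in 2021 alone, without the batch term, without any 1 resistant library or without control replicate 1, with adjusted p-values of 0.0538 to 0.420 for ST6GAL1 and 0.0832 to 0.426 for ETS2. ETS2 also lost its call without control replicate 3 (0.0880) and with the replicate block (0.0637). These correlations rest on 6 points that share line, batch and library, and they are descriptions. The genes were picked by likeness over these same libraries, so their direction between the lines follows largely from that choice.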

How the data were processed

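RNA of MDA-MB-468-PR and parental MDA-MB-468 was sequenced in 3 libraries each. Per the labels' protocols, 100 ng of total RNA was made into libraries and captured with exome probes. The authors deposited 1 table of raw counts per Entrez gene ID, not normalised. Trimmomatic 0.38, STAR 2.7.8a, featureCounts of Subread and GRCh38 are named per the submitters' processing notes. For strand setting, multi-mapping reads and annotation release, nothing is given in the sources used here, so overlapping or near-identical genes may exchange reads. Columns were matched to samples by the library names in the labels, and all columns were used.

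Gene names and positions came from a RefSeq table of GRCh38.p14, which matched 27745 of 28395 IDs, and exon and coding lengths from GENCODE 29. Of all genes, 9517 had no count. Counts were filtered with filterByExpr by group (minimum count 10), which kept 13950 genes, scaled by TMM and tested with the robust quasi-likelihood test of edgeR 4.0.16 in R 4.3.3, with batch year and line as terms and 3 residual degrees of freedom. P-values were adjusted by the Benjamini-Hochberg method over all tested genes. Standard errors come from the F statistic, and log2 CPM used a prior count of 2. Tests are two-sided. Intervals for single counts, ratios and shares are exact and cover counting error only, since reads without molecular identifiers are not independent molecules.

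The members, pathway lists and marker lists were chosen with earlier results of these data known. Of each pathway list, up to 4 genes that passed with a mean of 1 CPM or more were named by lowest p, or the most abundant gene where none passed, plus every further family gene with at least 10 counts in a library. Neighbours reach 1 Mb beyond the outermost member, and at most 4 that passed were to be named. For each of the 2 tested members with the highest mean CPM, the 3 most similar genes were named.

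Counts of 2 libraries in 1 group differed beyond sampling noise (chi-square divided by its degrees of freedom, 70.0 to 215.3), and each library was 1 sample. Whether replicates were separate cultures is not in the labels, and p-values therefore reflect only the spread of these libraries, possibly technical. Replicate numbers come from the sample titles. Deviations from the group means correlated between same-numbered libraries at 0.729, 0.143 and 0.155, all over 0.1, so the number was used as a block in an alternative fit. These deviations still hold the batch, which same-numbered libraries share, so the correlations cannot show pairing by number. Within 2021, libraries of different numbers correlated more, at 0.570 for resistant 3 with control 2 and 0.477 for resistant 2 with control 3. On simulated counts for the comparison of the lines (13950 genes, 200 changed in each of 5 rounds), the share of changed genes recovered was 40.4% for a change of 1.5-fold, 78.4% for 2-fold, 89.6% for 3-fold and 96% for 4-fold, while false calls made up 10.7% of 852. For the interaction of line and batch, which has 2 residual degrees of freedom, it recovered 0.8%, 12%, 53.6% and 70.8% at the same folds, with 17.3% false calls among 415. Alternatives were no filter, a filter at a mean of 1 CPM, upper quartile scaling, DESeq2's size factors, the Wald test of DESeq2 1.42.0, voom of limma 3.58.1, no batch term, the replicate block, 2021 alone and leaving out each library. A block with crossed numbers, leaving out both libraries of low FOS, and the alternatives for pathway lists and for genes other than the members were added after seeing the data.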

Additional observations from a re-analysis of the deposited data

How the results depend on the processing

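IL18 kept its direction and its call under every alternative run except the fit without the batch term, with log2 differences of 0.78 to 0.99. IL1R1 kept its direction in all 17, from -0.98 to -0.65, and lost its call without resistant replicate 3 and without the batch term. IL1RAP ranged from 0.42 to 0.72 and passed in 6 of 17, among them upper quartile scaling (adjusted p = 0.0448) and the DESeq2 Wald test (0.0235). It did not pass in the other 11, among them limma voom (0.0620), the replicate block (0.0929) and 2021 alone (0.194). The sign turned for 2 genes without a call, both without control replicate 3: IL1RN to -0.10 (range when a library was left out -0.10 to 0.46) and SIGIRR to -0.031 (range -0.031 to 0.095). Of the 9 members 0 passed in edgeR without the batch term, with 2 at an unadjusted p under 0.05, and 1 to 3 when a library was left out, with the lowest count without resistant replicate 3. The count of all genes was 1633, and it was 362 without the batch term, 1012 in 2021 alone, 2481 without the libraries of low FOS and 617 to 1985 when a library was left out. Upper quartile scaling gave 951 higher and 636 lower genes, against 869 and 764. The interaction count was 0, and 0 to 1 when a library of 2021 was left out. The response genes had 2 calls without the batch term. The inflammasome list had 5 calls with no filter (4 higher and 1 lower), where 2286 of 18878 genes passed. With the DESeq2 Wald test it had 6 (5 higher and 1 lower), where 2204 of 13950 genes passed. It had 0 calls in edgeR without the batch term (2 at an unadjusted p under 0.05), 6 with the crossed block (5 higher and 1 lower) and 6 without the libraries of low FOS. With the replicate block, 1303 genes and 2 members passed (adjusted p = 0.0118 for IL1R1 and 0.00866 for IL18), and among the genes followed under the alternatives it ended the calls of CXCL1, BIRC3 and ETS2 (0.0637), added CSF1R (0.0139) and changed no other call. With crossed numbers in 2021, 2254 genes and 3 members passed. The cause of these shifts was not tested. The depth sets a limit at IL1A, IL1B, IL33 and IL36G, and 3 libraries a line leave the interaction test with little power, as the simulated counts show.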
